A study of Strigamia maritima with 9 samples.

Results

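Native regions of CopiaMBD3 alone are places in the genome of the centipede *Strigamia maritima* where the authors called a binding peak for CopiaMBD3 and for neither CopiaMBD1 nor CopiaMBD2. They were found by pooling the peaks of the 3 native-DNA libraries, joining peaks that shared at least 1 bp, and keeping the joined regions that held CopiaMBD3 peaks only. This left 5993 regions, 28.3% of the 21205 joined native regions. All 5993 were made of 1 peak. They held 38.1% of the 15714 native CopiaMBD3 peaks (exact Clopper-Pearson 95% interval 37.4 to 38.9). The regions were chosen by the authors' peak calls in the same 3 libraries, so their strength, width and spacing are described here and carry no test.

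A methyl-CpG binding domain (MBD) is a protein fold known for recognising cytosines that carry a methyl group in a CG pair. In animals such domains are best known from proteins that read DNA methylation, and Copia elements are retrotransposons, which copy themselves through an RNA intermediate. The CopiaMBD domains are MBDs carried by such elements in this centipede. In DNA affinity purification sequencing (DAP-seq) a protein made outside the cell is offered naked genomic DNA, and the DNA it holds is sequenced. It therefore reads what the protein can bind in the absence of chromatin.

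The CopiaMBD1, CopiaMBD2 and CopiaMBD3 native groups were each 1 library, made by offering sonicated adult genomic DNA of the genome strain to the domain fused to a HaloTag, a tag that couples a protein to beads. The CopiaMBD1, CopiaMBD2 and CopiaMBD3 amplified groups, also 1 library each, used the same kind of DNA after 11 cycles of PCR, which copies the bases and not the methyl groups. A HaloTag-only library on each kind of DNA served as the control of the authors' peak calls, and all libraries received 20 final PCR cycles. No group had a replicate, so no difference below has a replicate check, and no p-value is given. Every interval covers counting error over regions or peaks only, and leaves out variation between libraries, because each group held 1 library. Reads copied by PCR and carrying no molecular identifier also need not stand for separate molecules.

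CopiaMBD3 had the shallowest of the 3 native libraries and the most peaks. Its calls rested on 2044955 tags at unique positions, those of CopiaMBD2 on 2224965 and those of CopiaMBD1 on 2239324. The amplified-DNA calls rested on 3488873 to 3685424 tags. The 3 native lists were called against 1 shared HaloTag-only library.

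The 5993 regions were weaker and narrower than the CopiaMBD3 peaks that overlapped another domain. Their median fold enrichment, the authors' ratio of fragments over the summit to the local control level with 1 added to each, was 4.73 (interquartile range 3.96 to 5.66). At the 9721 shared CopiaMBD3 peaks it was 5.72 (4.48 to 7.57). Median width was 174 bp (150 to 211) in the regions of CopiaMBD3 alone and 239 bp (183 to 338) at the shared peaks. The summit held a median of 15 fragments (13 to 19) in the regions of CopiaMBD3 alone, against 21 (16 to 29) at the shared peaks. Together the regions covered 1158 kb, 0.667% of the effective genome.

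The strength of the CopiaMBD3 signal went with the number of domains at a place. Median CopiaMBD3 fold was 4.73 in the regions of CopiaMBD3 alone, 5.10 where CopiaMBD1 was the one other domain, 5.31 where CopiaMBD2 was, and 6.42 where both were. Median width of the CopiaMBD3 peak followed the same order, with 174, 200, 213 and 279 bp. Regions of CopiaMBD2 alone, from another list with its own depth, had a median CopiaMBD2 fold of 4.19 (3.48 to 4.98) and a median width of 169 bp (146 to 206). Regions of CopiaMBD1 alone had a median CopiaMBD1 fold of 4.02 and a median width of 165 bp.

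**Figure D1:**
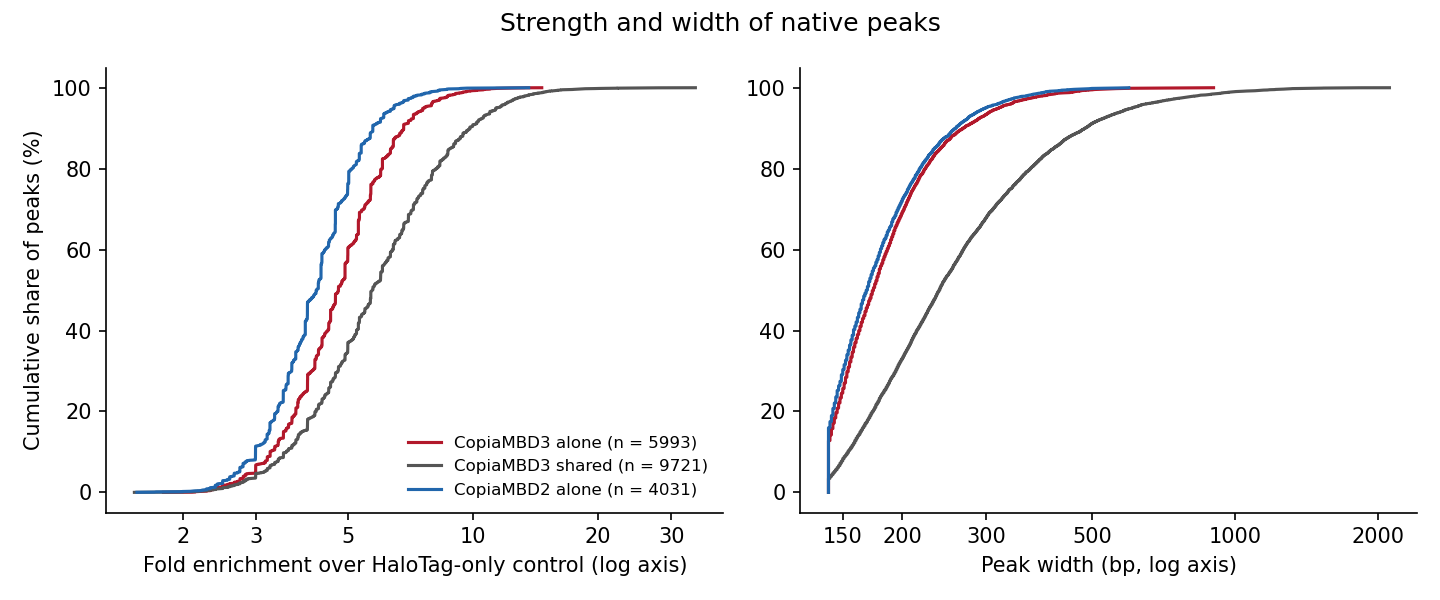
Cumulative share of native peaks (%) by fold enrichment (left, log axis) and by peak width in bp (right, log axis), for the 5993 peaks of CopiaMBD3 alone, the 9721 shared CopiaMBD3 peaks and the 4031 peaks of CopiaMBD2 alone. The curve of CopiaMBD3 alone lies left of the shared curve in both panels, with medians of 4.73 and 5.72 for fold and of 174 and 239 bp for width.

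Few of the regions were strong. Of the regions, 1005 had a −log10 q of 10 or more, 16.8% (15.8 to 17.7), while 37.7% of all native CopiaMBD3 peaks had one. A fold of at least 5 was reached by 2369 regions, 39.5% (38.3 to 40.8), against 54% of all native CopiaMBD3 peaks. A fold of at least 10 was reached by 43 regions, 0.718% (0.520 to 0.965), against 5.94% of all native CopiaMBD3 peaks. The lone regions of the other domains, each read from its own list, had lower shares. Of the regions of CopiaMBD2 alone, 7.39% had a −log10 q of 10 or more and 23.7% a fold of at least 5. For CopiaMBD1 alone these were 2.95% and 13.9%. These shares read the same calls that chose the regions, so nothing is drawn from them.

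Below a fold of 5, about as many CopiaMBD3 peaks were alone as were shared, and above it the share alone declined with fold. Of the 2651 peaks with a fold over 3 and up to 4, 50.7% (48.7 to 52.6) were alone, and of the 3711 with a fold over 4 and up to 5, 50.4% (48.8 to 52.0). The share was 34.2% (32.2 to 36.3) between a fold of 6 and 7, 13.0% (11.2 to 14.9) between 8 and 10, and 2.41% (0.976 to 4.91) between 12 and 15. None of the 93 CopiaMBD3 peaks with a fold over 15 was alone, so by counting error the share could be as high as 3.23%, or 3.89% by the exact interval. By significance the decline was as steep, with 56.9% alone at a −log10 q of up to 3, 47.5% between 5 and 10, and 5.21% between 20 and 40.

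Width separated lone from shared CopiaMBD3 peaks also among peaks of like fold. Of the 1100 peaks of 140 bp, the shortest width in this list and the fragment length the caller estimated, 69.6% (66.8 to 72.3) were alone. That width was found in 766 regions of CopiaMBD3 alone, 12.8% (11.9 to 13.7) of them, while 7% of all native CopiaMBD3 peaks had it. Of the 511 peaks over 600 bp wide, 9 were alone, 1.76% (0.808 to 3.32). Among peaks with a fold over 4 and up to 5, median width was 162 bp for the lone and 205 bp for the shared. Among those with a fold over 8 and up to 10 it was 210.5 bp for the lone and 279 bp for the shared. Peaks of like fold need not be of like significance. At a −log10 q over 3 and up to 5, median width was 159 bp for the lone and 183 bp for the shared. At one over 10 and up to 20 it was 204 bp for the lone and 262 bp for the shared. A wide peak has more positions at which a peak of another domain can touch it, and how much of the width difference this accounts for was not tested. The summit lay in the middle part of the peak, within 50% of the distance from centre to edge, in 90.2% of the lone peaks and 87.3% of the shared ones.

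**Figure D2:**
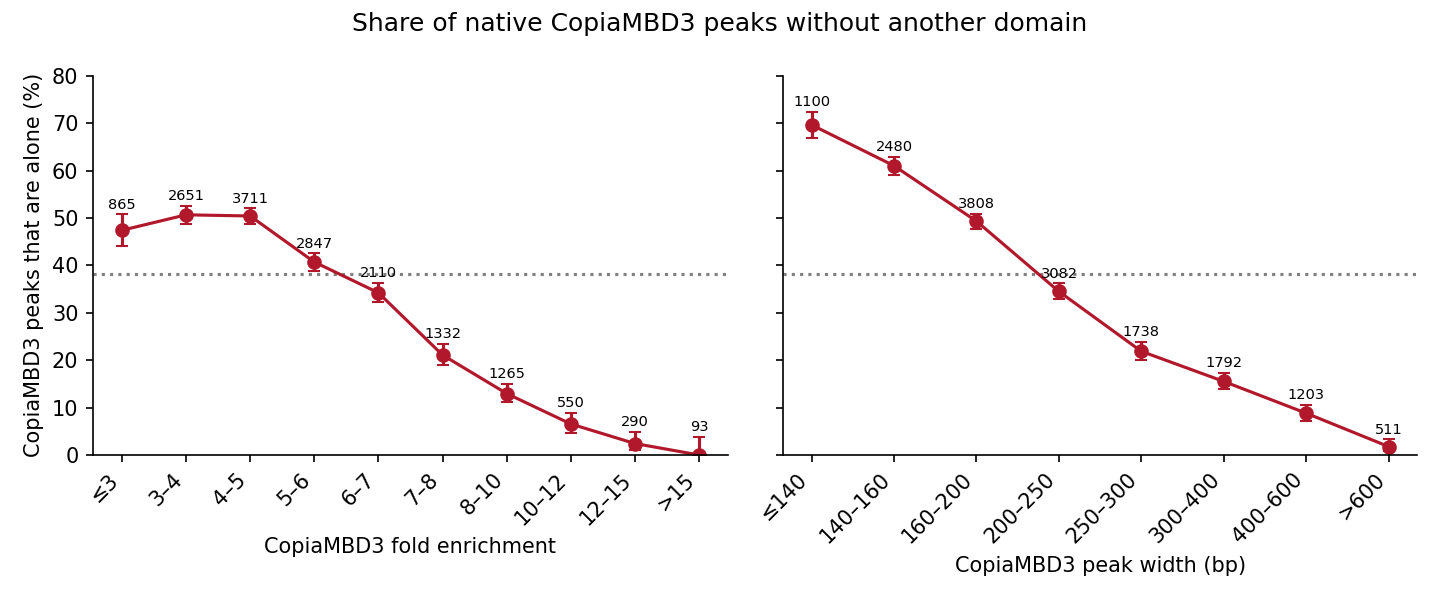
Share of native CopiaMBD3 peaks that are alone (%), by fold enrichment (left) and by peak width in bp (right); points are shares, bars are exact 95% intervals, small numbers count the CopiaMBD3 peaks in each bin, and the dotted line is the share over all 15714 peaks, 38.1%. The share is near 50% up to a fold of 5 and 0 of 93 over 15, and it declines with width from 69.6% at 140 bp to 1.76% over 600 bp.

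The control level under a summit follows from its pileup and fold, and is given relative to the lowest of the list, which is the genome-wide average of 1.65 fragments. It had a median of 1.24 (1.02 to 1.83) in the regions of CopiaMBD3 alone and 1.54 (1.19 to 2.44) at the shared CopiaMBD3 peaks. The control stood at its lowest level in 1421 regions of CopiaMBD3 alone, 23.7% (22.6 to 24.8), against 18.8% (18.1 to 19.6) of the shared peaks. It was at least 3 times that level in 537 regions, 8.96% (8.25 to 9.71), against 17.8% (17.1 to 18.6) of the shared peaks. Only 11 regions lay where it was at least 10 times the lowest, against 229 shared peaks. Relative to its own list, the median control level was 1.26 for CopiaMBD2 alone and 1.15 for CopiaMBD1 alone, and 6.57 and 5.79% of them were at 3 times the lowest or more. Whether the control level plays a part in which peaks were alone was not tested.

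A missing CopiaMBD1 or CopiaMBD2 peak means that no peak was called, not that nothing was bound. How low the other domains must have been can be estimated, because the Poisson probability of the pileup given the local control gave back the authors' p-value at every peak of the 6 lists, within 0.001 on the log10 scale. For each region the smallest fold that CopiaMBD1 or CopiaMBD2 would have needed at the summit was computed, with the control level scaled to that library's depth and fragment length. The median of this smallest callable fold was 2.74 for CopiaMBD1 and 2.74 for CopiaMBD2. Applied to the lists themselves, the estimate was met by 7460 of the 7461 called CopiaMBD1 peaks and by all 14001 called CopiaMBD2 peaks. That outcome was fixed in advance, because each limit was the lowest −log10 p called in the same list. It does not check the scaling of the control level between libraries, which was not tested. A call also needs a stretch at least as long as the fragment, so a short stretch above the limit may have gone uncalled.

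Most of the 5993 regions stood only moderately above that limit. The CopiaMBD3 fold was a median of 1.71 times (interquartile range 1.45 to 2.02) the larger of the 2 limits. It was under the limit in 52 regions and under 1.5 times the limit in 1755, 29.3%. It was at least 2 times the limit in 1545 regions, 25.8%, and at least 3 times in 147 regions, 2.45%. In those 147 regions the CopiaMBD3 fold was 6.47 to 14.6 with a median of 9.43. Among them, 36 had no peak of another domain on their sequence and 56 had one within 1 kb. The estimate was added after the values were seen.

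**Figure D3:**
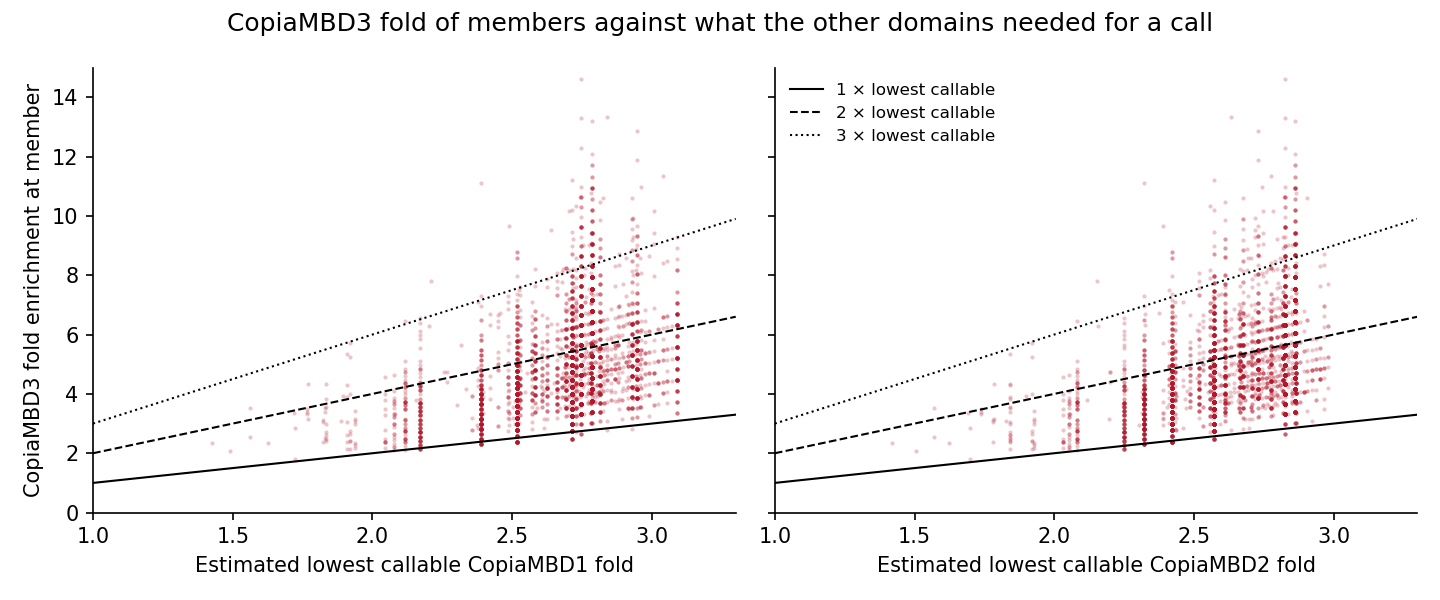
CopiaMBD3 fold enrichment at each of the 5993 regions of CopiaMBD3 alone against the estimated lowest fold at which CopiaMBD1 (left) or CopiaMBD2 (right) would have been called there; lines mark 1, 2 and 3 times that limit. Most points lie between the solid and the dashed line, and 147 regions are at least 3 times above the limits of both domains.

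The strongest regions lay on scaffolds and on contigs. Positions are 1-based and as the files give them, on sequences with JH names (scaffolds) and AFFK names (contigs). The build they come from is not stated in the labels or headers. The genes or repeats at them were not analysed here. The strongest region was JH430440:9283-9481, with a CopiaMBD3 fold of 14.6 from 43 fragments and a −log10 q of 38.3. CopiaMBD1 could have been called there from a fold of 2.74 and CopiaMBD2 from 2.82. The nearest peak of another domain was a weak CopiaMBD1 peak, with a fold of 2.99, at a distance of 8722 bp. CopiaMBD3 thus stood 5.33 times above the CopiaMBD1 limit and 5.18 times above the CopiaMBD2 limit, in a stretch with no neighbour of either.

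The next region, AFFK01023668:35705-35967, had a fold of 13.3 from 42 fragments. It lay in a different setting, 80 bp from a shared CopiaMBD3 region and 172 bp from a CopiaMBD2 peak with a fold of 4.71. JH431233:3704-3874 had a fold of 13.3 from 39 fragments, and AFFK01004462:912-1087 had one of 13.2 from 34 fragments. AFFK01002526:826-1042 followed with a fold of 12.9 from 39 fragments. None of these last 3 sequences carried a native peak of CopiaMBD1 or CopiaMBD2.

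Ranked by significance, the first region was AFFK01007500:1314-1558. It had 66 fragments over a control level 3.05 times the lowest, which gave a fold of 11.1 and a −log10 q of 46.0. No peak of CopiaMBD1 or CopiaMBD2 was called on that contig, where CopiaMBD1 would have needed a fold of 2.39 and CopiaMBD2 one of 2.32. Next by significance came the regions on JH430440 and AFFK01023668.

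Of the 43 regions with a fold of at least 10, 22 lay on contigs, against 30.9% of all regions of CopiaMBD3 alone. Shared peaks of like fold had a similar contig share. At a fold over 10 and up to 12, it was 50% for the lone and 50.6% for the shared CopiaMBD3 peaks. The sequence carried no peak of another domain for 14 of the 43, a peak of one lay within 1 kb for 16, and the nearest was farther for 13. Their smallest excess over both limits was 3.38 times. None carried an amplified-DNA peak, so by counting error the share could be as high as 6.98%, a limit well above the 0.566% of all native regions that had one; nothing is read from this count.

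At the other end, AFFK01001505:597-738 had the lowest fold, 1.79, with 35 fragments over a control 11.6 times its lowest level. AFFK01003187:123-284 came next with a fold of 2.07, from 80 fragments over a control 23.2 times the lowest. In the first, CopiaMBD3 stood 1.04 times above the CopiaMBD1 limit and 1.05 times above the CopiaMBD2 limit. These weakest regions had deep coverage in the control, unlike those of highest fold. That contrast was fixed by the caller, whose p-value lets so low a fold pass only over a high control. Over the 410 regions with a fold up to 3, the median control level was 2.44 times the lowest.

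The widest region was JH432105:246299-247199, 901 bp with a fold of 5.98, at a distance of 18740 bp from the nearest peak of another domain. JH432085:116774-117653 was 880 bp wide with a fold of 4.18, and JH431950:5715-6518 was 804 bp wide with a fold of 5.86. Only 115 regions, 1.92%, were over 400 bp wide, against 16.4% of the shared CopiaMBD3 peaks.

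The 1 bp rule divided a few close cases. Just inside it, AFFK01015078:14539-14678 (CopiaMBD3 fold 3.49) lay directly beside a CopiaMBD1 peak with a fold of 4.08, with 0 bp between them. AFFK01013360:3035-3235 (fold 3.40) lay directly beside a CopiaMBD2 peak with a fold of 4.65. Just outside it, the CopiaMBD3 peak at JH430348:3965-4132 (fold 3.77) shared 1 bp with a CopiaMBD2 peak with a fold of 3.48. The one at JH431979:7950-8176 (fold 6.31) shared 2 bp with a CopiaMBD2 peak with a fold of 6.08. Such cases were rare: 28 of the 9721 shared CopiaMBD3 peaks overlapped another domain by 10 bp or less, and the median of the largest overlap was 184 bp.

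Peaks of the other domains were often near. For 2344 regions of CopiaMBD3 alone, 39.1% (37.9 to 40.4), a CopiaMBD1 or CopiaMBD2 peak lay within 1 kb, and for 772, 12.9% (12.04 to 13.8), within 200 bp. Another 1009 regions, 16.8%, lay on sequences with no native peak of another domain. The median gap was 1154.5 bp over the 4984 regions that had such a peak on their sequence. The nearest belonged to CopiaMBD2 in 3787 regions and to CopiaMBD1 in 1197, and the CopiaMBD2 list was also the longer, with 14001 peaks against 7461.

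The nearest shared CopiaMBD3 region was within 1 kb for 28.1% (26.9 to 29.2), and the nearest other region of CopiaMBD3 alone for 18.9% (17.9 to 19.9). Regions of CopiaMBD2 alone had a CopiaMBD1 or CopiaMBD3 peak within 1 kb in 42.6% (41.0 to 44.1) of cases. Distances depend on how many peaks each list holds and how long each sequence is. The strength of the regions varied little with distance. Median CopiaMBD3 fold was 4.65 within 200 bp of another domain, 4.81 from 200 bp to 1 kb, 4.65 from 1 to 10 kb, 4.53 beyond 10 kb and 4.91 on sequences with no other domain.

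**Figure D4:**
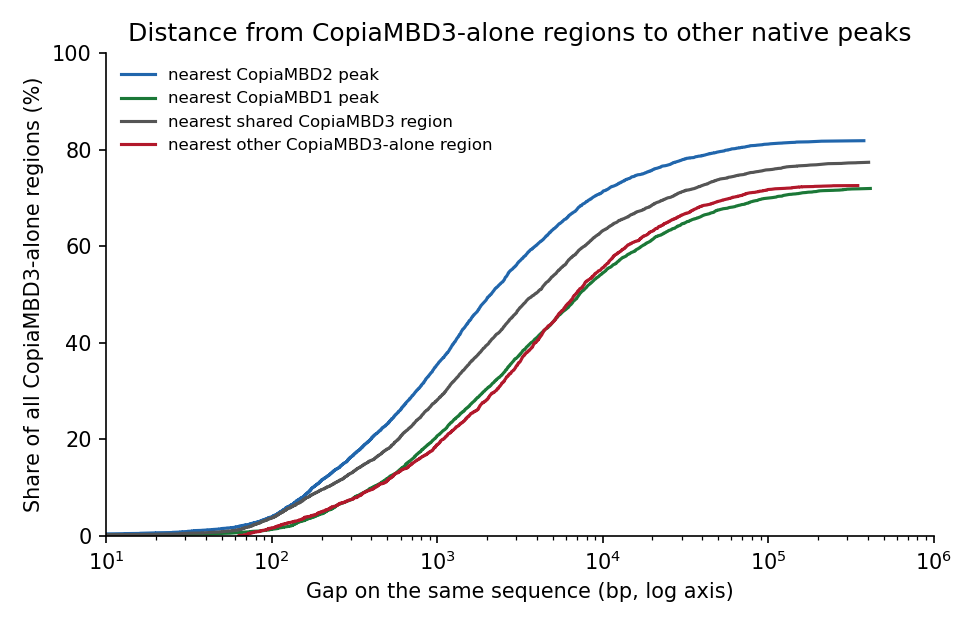
Cumulative share of the 5993 regions of CopiaMBD3 alone (%) by the gap in bp (log axis) to the nearest CopiaMBD2 peak, CopiaMBD1 peak, shared CopiaMBD3 region and other region of CopiaMBD3 alone on the same sequence. Curves end below 100% because some sequences carry no such peak; a CopiaMBD2 peak lay within 1 kb of 35.4% of the regions and a CopiaMBD1 peak within 1 kb of 20.7%.

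The regions were spread over 2779 of the 6018 sequences with a native peak. A sequence held exactly 1 of them in 1646 cases, and 59 sequences held at least 10, with 937 regions in all. On 891 sequences every native region was of CopiaMBD3 alone, and 787 of these carried a single one. The longest such set was 4 regions on 1 sequence. The median span of these 891 sequences, from their start to the end of the last peak, was 983 bp, and 72.2% of their regions were on contigs.

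Contigs held 1853 of the regions, 30.9% (29.8 to 32.1), against 39.0% (38.04 to 39.99) of the shared CopiaMBD3 peaks, and 35.4% of all native regions lay on contigs. The lone regions of the other domains had contig shares nearby, 33.3% for CopiaMBD2 alone and 31.1% for CopiaMBD1 alone. Of the CopiaMBD3 peaks on contigs, 32.8% (31.6 to 34.1) were alone, and of those on scaffolds, 41.1% (40.2 to 42.1). The difference kept its direction within each of the 5 fold classes compared. In the class with a fold over 4 and up to 5, 46.9% (44.1 to 49.7) were alone on contigs and 52.2% (50.2 to 54.2) on scaffolds. In the class over 8, 7.66% (6.08 to 9.496) were alone on contigs and 10.9% (9.16 to 12.8) on scaffolds. By span, 29.8% (28.2 to 31.5) of CopiaMBD3 peaks were alone on sequences spanning up to 2 kb, 43.7% (41.8 to 45.5) on those over 100 and up to 500 kb, and 49.7% (46.3 to 53.1) on those over 500 kb. The control level differed too: on sequences up to 2 kb its median was 1.22 times the lowest at lone CopiaMBD3 peaks and 1.83 times at shared ones. Densities per Mb are not compared between contigs and scaffolds, because the length of a sequence is known here only up to its last peak.

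Among the 20 sequences with at least 30 native CopiaMBD3 regions, the share alone was 25 to 61.8%, with 41.0% over all 20. The most regions were on JH432211, with 69 of 157 CopiaMBD3 regions alone, a share of 43.9% (36.0 to 52.1). JH431789 had 68 of 145, 46.9% (38.6 to 55.4), and JH432085 had 40 of 77, 51.9% (40.3 to 63.5). JH431806 had the highest share, 21 of 34 or 61.8% (43.6 to 77.8), and JH431210 the lowest, 8 of 32 or 25% (11.5 to 43.4). The interval held the share over all 20 for 19 of them, JH431806 being the exception. Up to the last peak of each sequence, there were 1.32 regions of CopiaMBD3 alone per 100 kb on JH432010, the lowest of the 20, and 22.1 on JH429716, the highest.

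**Figure D5:**
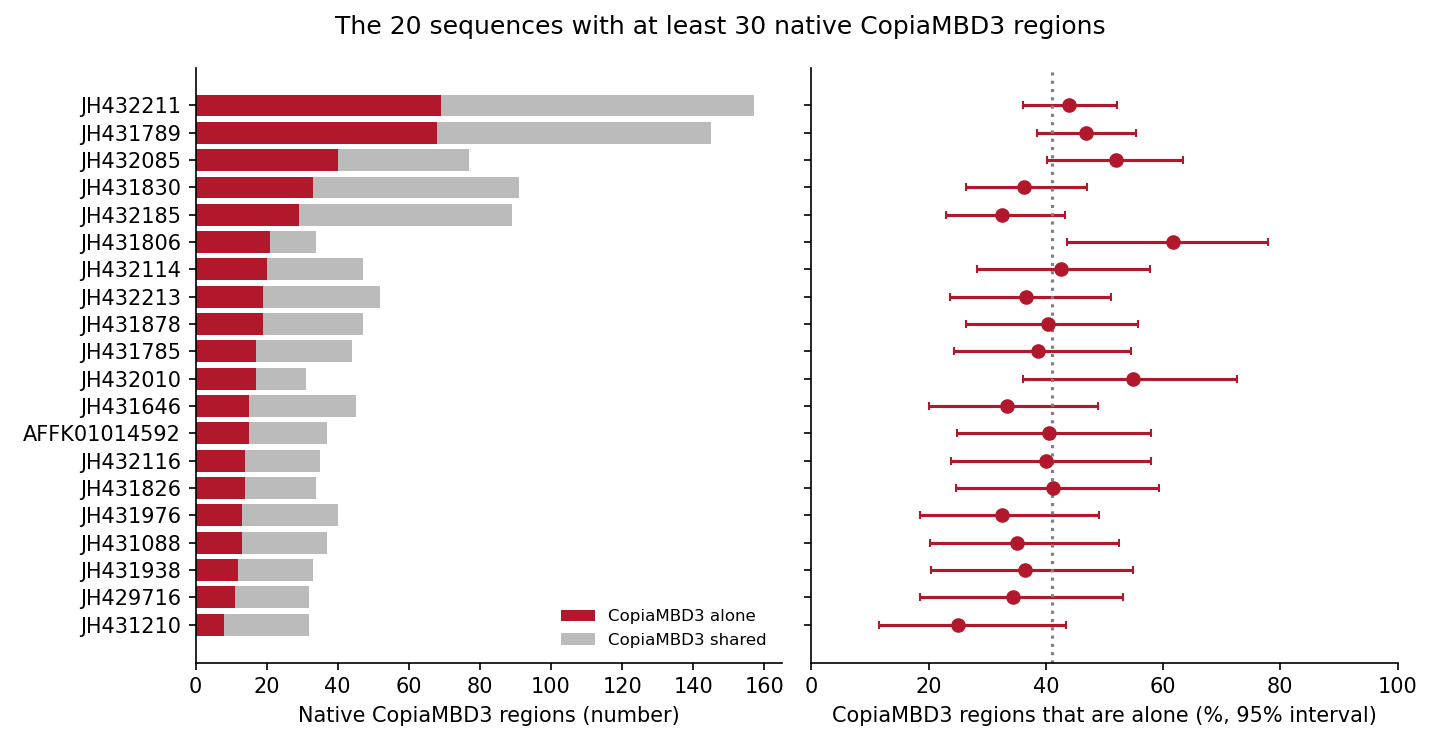
Native CopiaMBD3 regions on the 20 sequences that hold at least 30, split into alone and shared (left, number), and the share alone with its exact 95% interval (right, %); the dotted line is the share over all 20, 41.0%. JH432211 holds the most, 69 of 157, and the interval of JH431806, 43.6 to 77.8%, is the one that lies off the line.

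The densest runs held 7 regions of CopiaMBD3 alone with centres within 10 kb, found on 4 sequences. The run at JH432211:339184-345829 had the highest folds, 9.06, 3.74, 3.63, 5.48, 6.10, 6.35 and 7.70 in order along the scaffold. Between them lay 3 shared CopiaMBD3 regions and 1 of CopiaMBD2 alone. The run at JH431557:947-7320 had folds of 2.99 to 5.98 with 3 shared regions among them, and that at JH431789:638397-647104 had folds of 2.99 to 7.26 with 1 shared region among them. Shared CopiaMBD3 regions thus lay between the lone ones in these 3 runs.

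The amplified-DNA lists took no part in choosing the regions. They were short, with 358 peaks for CopiaMBD1, 133 for CopiaMBD2 and 169 for CopiaMBD3, so only a small share of any large set of regions could carry one. Of the 5993, 4 carried an amplified-DNA peak of CopiaMBD3, 0.0667% (0.0182 to 0.171), while 0.25% of all native regions carried one. An amplified-DNA peak of any domain was found at 13, 0.217% (0.116 to 0.371), while 0.566% of all native regions had one. The shared CopiaMBD3 regions carried one of CopiaMBD3 in 39 of 9391 cases, 0.415% (0.295 to 0.567), and one of any domain in 82, 0.873% (0.695 to 1.08). Regions of CopiaMBD2 alone carried one of any domain in 14 of 4031 cases, 0.347% (0.190 to 0.582). The shares of CopiaMBD3 alone and of shared CopiaMBD3 regions had intervals that did not overlap, but neither was tested between replicates.

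Shared regions are wider, so they offer an amplified-DNA peak more room. Per Mb covered, 11.2 regions of CopiaMBD3 alone and 24.4 shared CopiaMBD3 regions carried an amplified-DNA peak of any domain. Between 160 and 250 bp of width the shares were 0.238% (0.0957 to 0.490) for CopiaMBD3 alone and 0.455% (0.249 to 0.763) for the shared, with intervals that overlap. At over 250 bp they were 0.259% (0.0313 to 0.931), from 2 regions, and 1.08% (0.841 to 1.38). Up to 160 bp they were 0.176% (0.0478 to 0.449), from 4 regions, and 0.725% (0.0183 to 3.97), from 1 region. In every class the share was lower for CopiaMBD3 alone, and the intervals overlapped. Widths over 250 bp still differ within that class. No difference at matched width was shown, and overlapping intervals do not show equal shares either. Whether width accounts for the lower share was not tested.

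The 4 regions with an amplified-DNA peak of CopiaMBD3 had native folds of 2.49 to 9.09. JH430949:10044-10289 had a fold of 2.49 on native DNA and 4.73 on amplified DNA. JH431012:2226-2408 had a fold of 9.09 on native DNA and 3.82 on amplified DNA. JH430672:6845-7073 had a fold of 3.77 on native DNA and 3.47 on amplified DNA. JH431761:10062-10292 had a fold of 6.79 on native DNA and 3.19 on amplified DNA. Fold was higher on native DNA in 3 of the 4, and the 2 kinds of DNA had different controls and depths.

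An amplified-DNA peak of CopiaMBD1 lay at 7 regions, 0.117% (0.0470 to 0.241), while 0.207% of all native regions had one. The amplified-DNA folds were 1.95 to 5.34. One of CopiaMBD2 lay at 3 regions, 0.0501% (0.0103 to 0.146), with folds of 2.21 to 3.42, while 0.156% of all native regions had one. On amplified DNA these places thus had a peak of a domain for which no native peak was called. JH432116:675332-675623 carried peaks of both, with an amplified-DNA fold of 1.95 for CopiaMBD1 and 2.21 for CopiaMBD2 and a native CopiaMBD3 fold of 5.32. The amplified-DNA control there was 6.16 times its lowest level in the CopiaMBD1 list and 4.81 times in the CopiaMBD2 list. The highest amplified-DNA fold at any of the 13 regions was that of CopiaMBD1 at JH432043:12418-12891, 5.34, where CopiaMBD3 had a native fold of 3.73 and a native control 4.26 times its lowest level. Median native CopiaMBD3 fold was 4.73 at the 13 regions and 4.73 at the other 5980, and 1 of the 13 lay on a contig.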

How the data were processed

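Per the file headers, the authors ran MACS2 2.1.0.20150731 with a q-value limit of 0.05. Native libraries were set against the native HaloTag-only library and amplified ones against the amplified HaloTag-only library, with the larger library sampled down, 1 tag kept per position and an effective genome of 173.6 Mb. The deposited pileup is a coverage signal at the summit. Fold enrichment, as deposited, is a ratio, (pileup + 1) / (local control + 1), and the deposited −log10 p and −log10 q are the caller's. Bowtie, Bowtie2, BS-Seeker2, fastp and CASAVA 1.8.2 are named in the submitters' processing notes without a role. Aligner settings and genome build are not stated in those sources. Groups came from sample titles. The MethylC-seq sample, base composition and genes were not analysed here.

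Peaks were joined and compared with Python 3.11.15, numpy 2.4.6, pandas 2.3.3 and scipy 1.17.1, and the joining was tested on simulated peaks of known class. Plots used matplotlib 3.10.9. The control level was (pileup + 1) / fold − 1. Shares carry exact Clopper-Pearson 95% intervals. Where a count was 0, the upper limit given in the text is instead 3 divided by the number of peaks or regions counted. It is below the exact limit, which was 3.89% and not 3.23% for 0 of 93 peaks. For 0 of 3395 regions the exact limit was 0.109% and not 0.0884%. The smallest callable fold used the lowest −log10 p called in the CopiaMBD1 list, 3.10, and in the CopiaMBD2 list, 2.94. With 1 library per group there was no test. Named regions were the 5 highest and 2 lowest in fold, the 3 most significant, the 3 widest, those nearest the 1 bp limit, the densest runs, the fullest sequences and those with an amplified-DNA peak of CopiaMBD3; other named sequences and regions were singled out after their values were seen. The regions and rules were chosen with earlier results of these data known. The 9 alternatives changed overlap, gap, thresholds, list lengths, sequences, control level or the use of summits.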

Additional observations from a re-analysis of the deposited data

How the results depend on the processing

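No paired analysis was possible because every group held 1 library. Each of the 9 results was recomputed under 9 alternatives, which gave 79 values; 27 stayed within the 95% interval of the reported value (for the number of regions, within 1.5 times), and 52 moved and are given here. The cause was not tested beyond the construction of each alternative. The share of all native regions has no value where overlap was judged peak by peak. With an overlap of at least 50% of the shorter peak required for sharing, 39.9% of CopiaMBD3 peaks were alone and 41.8% of the regions lay within 1 kb of another domain. With no other summit within 200 bp as the rule, 40.6% of peaks were alone, with a median width of 177 bp and 42.8% within 1 kb. With native peaks within 200 bp joined, the regions were 26.6% of native regions and 32.6% of CopiaMBD3 peaks, and 29.0% were within 1 kb.

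Each threshold lowered the number of regions, while the shares of native regions and of CopiaMBD3 peaks were higher with a threshold on every list and lower with one on CopiaMBD3 only. With a −log10 q of at least 10 in every list there were 3395 regions, 46.9% of native regions and 57.3% of CopiaMBD3 peaks. Only 1005 of them were among the original regions, because the limit also removed CopiaMBD1 and CopiaMBD2 peaks. The rest overlapped a weaker peak of another domain that no longer counted. The higher shares therefore do not mean that stronger CopiaMBD3 peaks were more often alone. Over all 3395, median fold was 7.17 and width 239 bp, and 33.9% lay on contigs and 15.2% within 1 kb. An amplified-DNA peak of CopiaMBD3 was carried by 0% and one of any domain by 0% (up to 0.0884% by counting error). This limit also cut the amplified-DNA lists. Without a threshold, the amplified-DNA peaks at regions of CopiaMBD3 alone had a −log10 q of 1.37 to 6.68, all below it. These 0% values therefore do not show that the regions lacked amplified-DNA peaks. With the same limit on CopiaMBD3 only, 1005 regions were left, 6.15% of native regions and 17.0% of CopiaMBD3 peaks, with a median fold of 6.98 and width of 204 bp; 32.3% lay on contigs and 42.7% within 1 kb, and 0.199% carried an amplified-DNA peak of CopiaMBD3 and 0.398% one of any domain, from 2 and 4 regions. With a fold of at least 5 in every list there were 4706 regions, 42.3% of native regions and 55.4% of CopiaMBD3 peaks. Of these, 2369 were among the original regions, and the rest overlapped a removed peak of another domain. Over all 4706, median fold was 6.17 and width 208 bp, and 33.0% lay on contigs and 21.4% within 1 kb. An amplified-DNA peak of CopiaMBD3 was carried by 0% (up to 0.0637%) and one of any domain by 0.0212%. The fold limit cut the amplified-DNA lists too. Without a threshold, the highest amplified-DNA fold at regions of CopiaMBD3 alone was 4.73 for CopiaMBD3 and 5.34 for any domain. Nothing is read from these 2 shares.

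With 7461 peaks in each native list there were 2428 regions, 18.8% of native regions and 32.5% of CopiaMBD3 peaks, with a median fold of 6.42 and width of 206.5 bp, 34.4% on contigs and 33.2% within 1 kb. Shortening the CopiaMBD2 list could likewise turn a shared CopiaMBD3 peak into a lone one. On sequences of at least 100 kb there were 1660, 33.2% of native regions and 45.1% of CopiaMBD3 peaks, with a median fold of 4.53 and width of 176 bp, 1.27% on contigs and 0% with an amplified-DNA peak of CopiaMBD3 (up to 0.181%). The length limit itself left only 21 regions on contigs, so the low contig share follows from it. With the control under 3 times its lowest level the regions were 28.9% of native regions and 41.9% of CopiaMBD3 peaks, with a median fold of 4.91 and 37.5% within 1 kb. This limit also removed CopiaMBD1 and CopiaMBD2 peaks. The amplified-DNA shares rest on few regions, 4 for CopiaMBD3 and 13 for any domain.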
